A study of Mus musculus with 18 samples.

Results

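The 3 stroma-rich mice were 3 of the 18 mice whose bone marrow was profiled: WT rep4, CCAT2-GT rep4 and CCAT2-GT rep6. They were chosen on measured values, as the 3 arrays with the highest mean log2 expression of 83 genes of marrow stroma (36 genes), bone (19) and endothelium (28), here called the stroma score. The study compared bone marrow cells of C57Bl6 WT mice (4) with those of mice engineered to overexpress CCAT2-G (4) or CCAT2-T (4) in every tissue, which the labels call DRAI-, and of CCAT2-GT mice (6), which they call DRAI+. CCAT2 is a long non-coding RNA. The labels do not say what DRAI stands for, which promoter drives the transgenes, how CCAT2-GT mice were made and how old the mice were. The 15 other mice were thus 3 WT, 4 CCAT2-G, 4 CCAT2-T and 4 CCAT2-GT mice, so no DRAI- mouse was among the 3. All 18 samples were flash-frozen marrow cells with 1 array each, and all expression values below are on the log2 scale.

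Bone marrow holds blood-forming cells inside a scaffold of stromal cells, bone-lining cells and sinusoidal vessels. The CXCL12-abundant reticular cells of the stroma, which carry the leptin receptor, make the chemokine Cxcl12 and the cytokine Kitl that hold stem cells in place. Megakaryocytes sit against the sinusoids and shed platelets into them, and resident macrophages clear dying cells and help red cells mature. The labels do not describe how the marrow was taken from each mouse.

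The 4 genes that mark the label were high in all 3 mice. Cxcl12 was at 10.02 in WT rep4, 9.98 in CCAT2-GT rep4 and 10.89 in CCAT2-GT rep6, against 5.44 to 9.77 in the 15 other mice with a median of 8.12. Lepr, the leptin receptor, was at 8.32, 7.37 and 8.35 in the same order, against 2.29 to 6.88 with a median of 4.99. Igfbp5, a binding protein of insulin-like growth factors, was at 9.16, 8.72 and 9.50, against 3.46 to 7.12. For these genes the 3 mice lay above every other mouse, by mean differences of 2.42, 3.30 and 3.25. Mgp, which inhibits calcification of matrix, was at 9.46, 8.95 and 10.26 and overlapped with the others, whose highest value was 9.09. For Lepr 3 of 4 probesets and for Igfbp5 1 of 2 ran the same way as the one used here. These values chose the mice and carry no test.

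The stroma score was 6.33 in CCAT2-GT rep6, 5.81 in CCAT2-GT rep4 and 5.71 in WT rep4. The mouse just outside the choice, CCAT2-G rep2, was at 5.51, and CCAT2-G rep4 and WT rep1 followed at 5.27. The other mice ran down to 4.43 in CCAT2-T rep3 with no clear step, so the 3 are the top of a range and not a separate cluster. They were also the top 3 by the 4 markers, by marrow stroma, by bone and by endothelium taken alone. The stroma list stood at 6.45, 6.45 and 7.04 in WT rep4, CCAT2-GT rep4 and CCAT2-GT rep6. CCAT2-GT rep6 was the highest of the 18 in each of the 3 lists that make up the score.

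**Figure D1:**
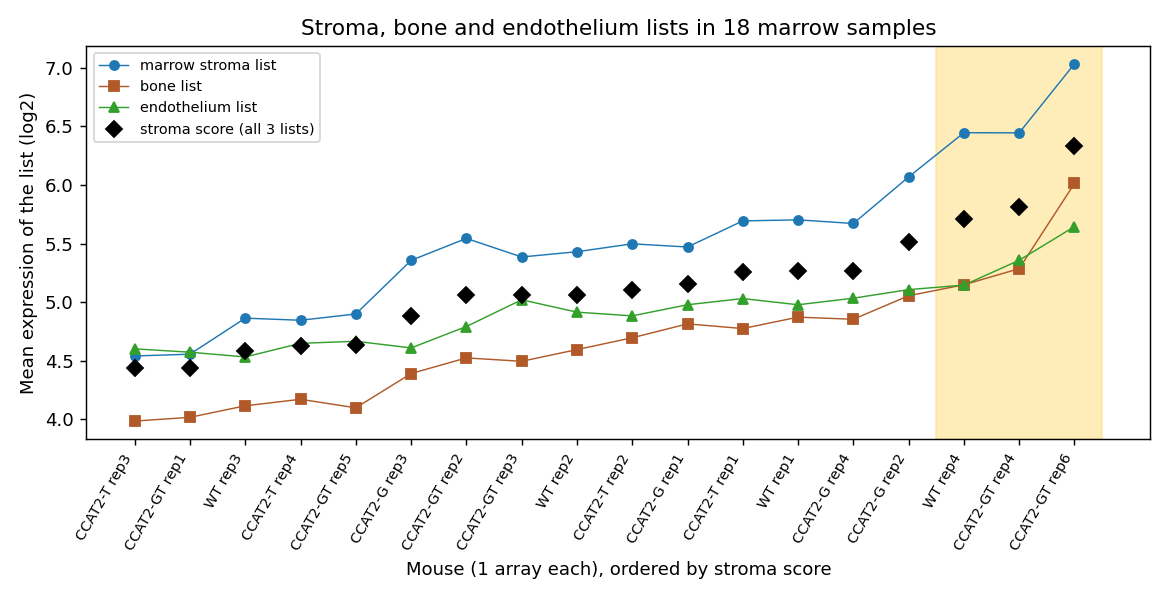
Mean log2 expression of the marrow stroma, bone and endothelium lists and of all their genes together (stroma score, diamonds) in each of the 18 mice, ordered by the score; the shaded mice are the 3 stroma-rich ones. The score climbs from 4.43 in CCAT2-T rep3 to 6.33 in CCAT2-GT rep6, and the shaded mice are the highest in all 3 lists.

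Within the lists that chose the mice the difference was uneven. Over all genes 3.24% were higher and 1.04% lower in all 3 mice than in any other mouse. The genes of these lists chose the mice, so their counts carry no test. Of the 36 stroma genes 29 were higher on average in the 3 mice and 17 did not overlap, among them Kitl (8.43, 7.66 and 9.08 against 3.31 to 7.56). Of the 28 endothelial genes 23 were higher, 9 without overlap; the sinusoidal scavenger receptor Stab2 was higher by 1.59 and the diaphragm protein Plvap by 1.45. Of the 19 bone genes 13 were higher and 4 did not overlap, including Cdh11 (higher by 3.28) and the matrix proteoglycan Bgn (higher by 2.28). Bone was the most mouse-dependent: the collagenase Mmp13 was at 8.92 in CCAT2-GT rep6 and 6.04 in CCAT2-GT rep4 but 4.04 in WT rep4, inside the range of the others (2.12 to 5.64). The osteocyte gene Sost was lower by 0.43 in the 3 mice, without overlap and near the low end of the scale. Fewer cells of a type and less RNA per cell cannot be told apart in these whole-marrow samples.

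The arrays were alike in overall level, with medians from 4.27 to 4.40 and correlations between arrays from 0.955 to 0.996, and 0 pairs held identical values. Markers of the labelled tissue were present in all mice: the neutrophil granule gene Ltf ran from 12.26 to 13.42, Mpo of early granulocytes from 11.15 to 12.95 and the erythroid factor Klf1 from 9.43 to 10.78. In 5 arrays (WT rep1, WT rep2, CCAT2-G rep1, CCAT2-T rep1 and CCAT2-T rep2) the spread of values was narrower, with interquartile ranges of 2.90 to 3.07 against 3.15 to 3.36 in the rest. The stroma-rich arrays, at 3.17, 3.25 and 3.35, were not among them. A second split of the samples ran along the score: the 5 mice of lowest stroma score, WT rep3, CCAT2-T rep3, CCAT2-GT rep1, CCAT2-GT rep5 and CCAT2-T rep4, were also the 5 with the highest level of immediate-early genes, at 7.46 to 8.57 against 6.35 to 6.94 in the 13 other mice.

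Across 14505 measured genes, 470 were higher in all 3 stroma-rich mice than in any other mouse, which is 3.24% of genes. A further 151 genes (1.04%) were lower in all 3 than in any other mouse. Since the mice were chosen on these arrays the counts describe them and are no test. When each of the 3 was compared only with mice of its own genotype, 1083 genes (7.47%) lay above and 721 (4.97%) below all of them. The counts depended on single mice: without WT rep4 they were 772 higher and 370 lower, without CCAT2-GT rep4 911 and 455, without CCAT2-GT rep6 559 and 334, and without CCAT2-GT rep2 the lower count was 235. Over all genes 6637 of 14505 were higher on average in the 3 mice, and the median difference was -0.03.

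Megakaryocyte and platelet genes were the group furthest above the other mice. Of 42 measured genes 40 were higher on average and 27 (64.3%) did not overlap, against 3.24% of all genes, with a median difference of 2.39. The 2 that were not higher were Pear1 and the transcription factor Nfe2. The mean level of the list was 7.91 in WT rep4, 9.18 in CCAT2-GT rep4 and 8.97 in CCAT2-GT rep6. The other mice ran from 5.80 in CCAT2-T rep3 to 7.73 in CCAT2-G rep4, with a median of 6.67. All 3 mice were above the rest, with WT rep4 by a narrow margin.

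Pf4 encodes the platelet chemokine stored in alpha granules, and Itga2b the alpha chain of the fibrinogen receptor. Their promoters are shown because both genes serve as lineage markers whose start regions are known for GATA and Ets factor sites. Each runs from 250 bases before to 50 bases after the start of the gene, from RefSeq on GRCm38.p6, at chr5:90772185-90772484 on the plus strand for Pf4 and chr11:102469834-102470133 on the minus strand for Itga2b. Capitals mark the GATA-factor motif, with the letters AGATAA, and the core of the Ets motif, AGGAAG, searched on both strands, and no match of one overlaps a match of the other here.
Pf4: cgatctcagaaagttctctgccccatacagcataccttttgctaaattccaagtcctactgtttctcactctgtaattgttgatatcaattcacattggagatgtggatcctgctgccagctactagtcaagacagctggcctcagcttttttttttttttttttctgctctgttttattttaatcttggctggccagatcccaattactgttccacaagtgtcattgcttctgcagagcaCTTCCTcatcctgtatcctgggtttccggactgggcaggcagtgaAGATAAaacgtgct
Itga2b: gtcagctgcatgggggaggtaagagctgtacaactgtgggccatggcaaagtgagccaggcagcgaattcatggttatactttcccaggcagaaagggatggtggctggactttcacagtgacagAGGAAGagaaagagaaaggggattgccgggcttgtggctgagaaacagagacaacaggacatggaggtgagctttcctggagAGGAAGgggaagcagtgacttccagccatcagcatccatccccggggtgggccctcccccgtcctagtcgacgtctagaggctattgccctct
The Pf4 window holds 1 match to each motif, the Ets letters on the opposite strand, and the Itga2b window holds 2 matches to AGGAAG and 0 to AGATAA. Among 32851 promoters of this length 11.2% hold AGATAA and 35.4% hold AGGAAG. Of 33 promoters that matched 31 of the 42 megakaryocyte genes, 6 (18.2%) hold AGATAA and 17 (51.5%) hold AGGAAG. Of 38 promoters of resident macrophage genes 0 hold AGATAA and 22 (57.9%) hold AGGAAG, and of 31 promoters of stroma genes 0 and 11 (35.5%). AGATAA was also held by 33.3% of erythroid promoters, 35.7% of those of later neutrophil granule genes and 35.3% of those of eosinophil, basophil and mast cell genes. A match describes the letters of the window and not a bound site.

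Pf4 was at 11.37 in WT rep4, 12.28 in CCAT2-GT rep4 and 12.35 in CCAT2-GT rep6, against 8.00 to 11.28 in the others, with a mean of 9.60 ± 0.90 (SD, n = 15). The 3 mice were above all others, by 2.40 on average, and the gap to the next mouse, CCAT2-G rep4, was small for WT rep4. Itga2b was at 8.50, 10.34 and 9.83 against 6.65 to 8.68, so WT rep4 lay inside the range of the others. Among the surface receptors, Gp1bb of the von Willebrand factor receptor was at 8.93, 10.86 and 10.54 against 4.99 to 8.82, though only 1 of its 2 probesets ran this way. Clec1b, the podoplanin receptor of platelets, was at 10.29, 11.45 and 11.42 against 6.35 to 9.95. Neither overlapped, with differences of 3.13 and 3.10. Among the enzymes and granule proteins, Alox12, the platelet lipoxygenase, was at 8.49, 10.47 and 10.04 against 4.02 to 8.18 and differed by 3.21. Vwf, which platelets and endothelium both store, was at 7.70, 9.94 and 9.16 against 4.59 to 7.70 and overlapped. In each of these genes the CCAT2-GT mice were higher than WT rep4; the median difference of the list from mice of the same genotype was 2.95 in CCAT2-GT and 1.47 in WT, a contrast that was not tested.

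The same genes were then followed along the stroma score within the 15 other mice. The score that ranked all 18 mice is also the variable here; the genes tested are not among those that make it up. A slope in limma, with genotype in the model, gives the change in log2 expression per log2 unit of score, tested for 14422 genes. The 15 mice are also the comparison group above, so the 2 sets of values share samples and are given side by side. In these mice 563 genes (3.9%) rose with the score and 987 (6.84%) fell at an adjusted p below 0.05 (limma, Benjamini-Hochberg). Of the 42 megakaryocyte genes 23 rose and 1, the transcription factor Fli1, fell; the median slope was 1.05, against 0.03 over all genes. Alox12 rose by 2.54 ± 0.47 (SE; limma adjusted p = 0.00447), Clec1b by 2.16 ± 0.41 (0.00524), Gp1bb by 2.08 ± 0.44 (0.00863) and Pf4 by 1.83 ± 0.39 (0.00899). Vwf (slope 1.39 ± 0.49, limma adjusted p = 0.0797) and Itga2b (0.80 ± 0.41, 0.203) did not pass.

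The number of calls changed with the mice fitted, which limits every adjusted p-value of a slope given in this report. Without the 5 mice that had both the lowest stroma score and the highest immediate-early level, 0 genes (0.0%) passed in either direction in limma, with 619 rising and 925 falling at an unadjusted p below 0.05. With the immediate-early level as a covariate 1 gene passed, the predicted gene Gm4951 (slope 2.43, limma adjusted p = 0.0499). Without the 5 narrow arrays 18 genes (0.125%) rose and 1 (0.00693%), the histone gene H3c7, fell; within those 5 arrays the score spans only 5.06 to 5.27 and was not fitted. With the array's interquartile range in the model 92 genes (0.638%) rose and 55 (0.381%) fell. The median slope of the megakaryocyte list was 1.55 without the 5 immediate-early-high mice, 2.02 with that level as a covariate, 1.67 without the narrow arrays and 1.56 with the interquartile range, and it was above 0 in all 34 alternatives run (0.74 to 2.02). The part of the immediate-early level and of the array spread in the calls was not tested further. Single mice also moved the counts by more than 1.5 times: they were 291 rising and 562 falling without WT rep1, 360 and 709 without WT rep2, 246 and 475 without WT rep3, and 922 and 1345 without CCAT2-G rep1. They were 276 and 610 without CCAT2-G rep3, 1080 and 1363 without CCAT2-GT rep2, 221 and 419 without CCAT2-T rep1, 326 and 642 without CCAT2-T rep2, 285 and 819 without CCAT2-T rep3, and 319 and 643 without CCAT2-T rep4. Quantile normalization of the arrays gave 557 rising and 528 falling, and centring on the array medians 228 and 618.

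**Figure D2:**
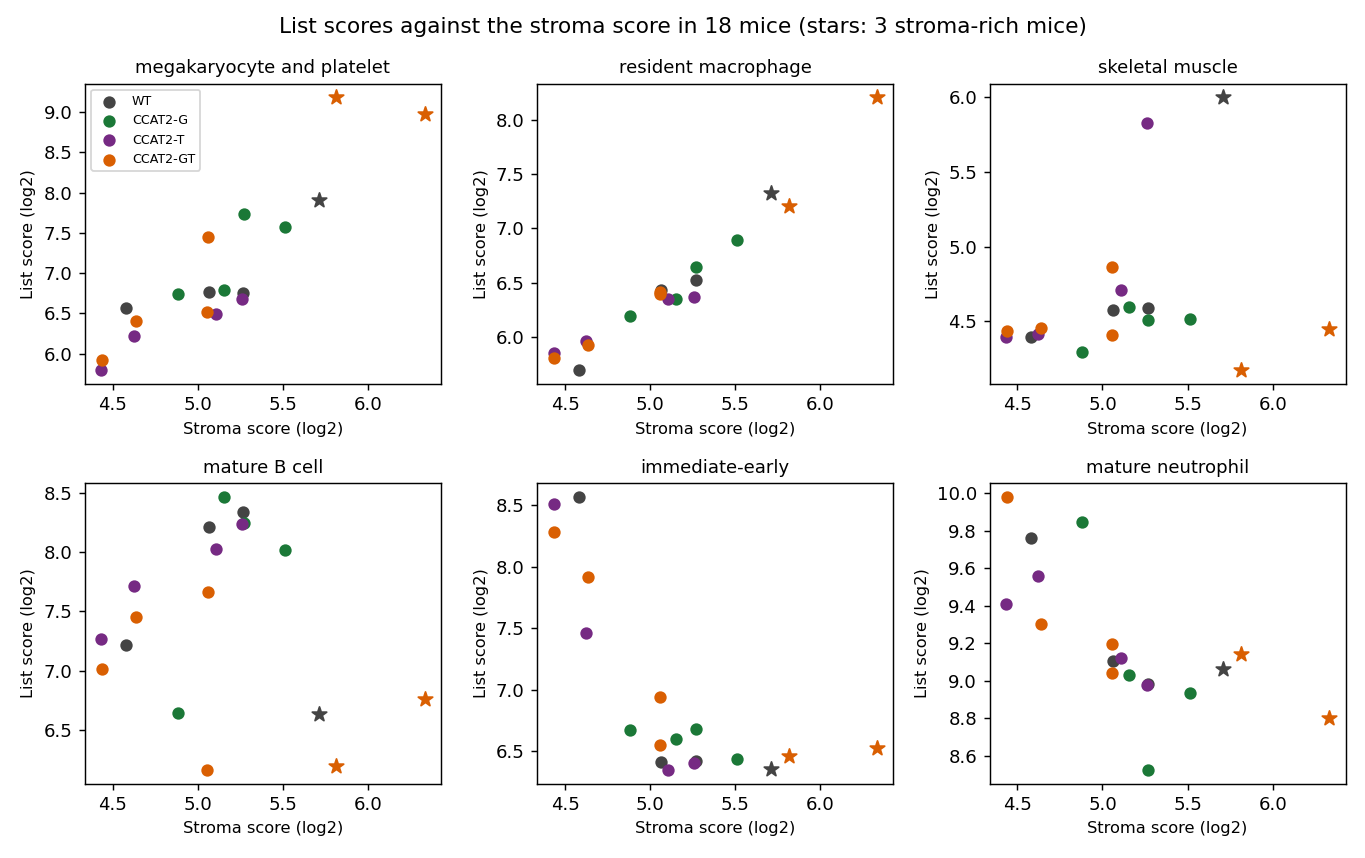
List scores (mean log2 expression of the list's genes) against the stroma score in the 18 mice for 6 lists; colours give the genotype and stars the 3 stroma-rich mice. Megakaryocyte and macrophage scores are highest in the stars, mature B-cell scores of the stars (6.20 to 6.76) lie among the lowest, and the immediate-early score is high only at the low end of the stroma score.

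Resident macrophage genes followed the megakaryocyte list in size. Of 39 measured genes 38 were higher on average in the 3 mice, with a median difference of 1.26, and Paqr9 was the exception. Of the 39 genes 17 (43.6%) did not overlap, against 3.24% of all genes. The list stood at 7.33 in WT rep4, 7.21 in CCAT2-GT rep4 and 8.21 in CCAT2-GT rep6, against 5.69 to 6.89 in the others. Each of the 3 was above every other mouse, and unlike the megakaryocyte list the WT mouse was not the lowest. From mice of the same genotype the median difference was 1.05 in WT and 1.34 in CCAT2-GT.

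The complement genes C1qa, C1qb and C1qc encode the chains of the C1q complex, which tissue macrophages secrete. C1qa was at 8.88, 9.18 and 10.67 against 5.67 to 8.73, and C1qb at 8.86, 9.90 and 10.54 against 4.93 to 8.33. C1qc was at 8.76, 8.85 and 10.26 against 5.24 to 8.55. All 3 chains were above every other mouse and were highest in CCAT2-GT rep6. Along the score in the other mice C1qb rose by 2.84 ± 0.40 (limma adjusted p = 0.000863), C1qa by 2.43 ± 0.26 (0.000161) and C1qc by 2.69 ± 0.26 (0.000109). The same score had ranked the mice, and without the 5 immediate-early-high mice 0 genes passed.

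Axl, a receptor that binds dying cells through Gas6, was at 8.46, 7.71 and 9.42 against 4.98 to 7.59 and rose by 2.26 ± 0.19 per unit of score (limma adjusted p = 4.1e-05). Timd4, which binds phosphatidylserine, was at 5.92, 3.74 and 7.13 against 2.65 to 3.48, so CCAT2-GT rep4 was only just above the rest. The slope of Timd4 was 0.58 ± 0.16 (limma adjusted p = 0.0318), from values near the filter on dim genes (a mean of 3.30). The complement receptor Vsig4 was at 5.80, 5.39 and 8.91 against 2.96 to 4.97, and most of its mean difference of 3.03 came from CCAT2-GT rep6. Its slope of 0.92 in the other mice did not pass (limma adjusted p = 0.189). Gpnmb, a glycoprotein of macrophages and osteoclasts, had the largest difference in the list, 3.32: it was at 8.91, 9.36 and 7.73 against 4.64 to 6.31, lowest of the 3 in CCAT2-GT rep6. Its slope in the other mice was 0.37 (limma adjusted p = 0.453). Vcam1, an adhesion molecule of macrophages and of stroma, overlapped (10.47, 10.07 and 11.27 against 7.90 to 10.19) and rose by 1.28 ± 0.30 (limma adjusted p = 0.0145).

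Along the score 20 of the 39 macrophage genes rose and 0 fell, against 3.9% and 6.84% of all genes, with a median slope of 0.66. The median was 0.92 without the 5 immediate-early-high mice, where 0 of them passed, and ran from 0.46 to 1.19 over the 34 alternatives. Among the 18 genes that still rose without the narrow arrays, C1qa (2.76), C1qc (2.90), Axl (2.62), Cd5l (3.12), Spic (2.18), Mrc1 (2.62) and Fcna (2.07) are on the macrophage list. Spic is the transcription factor of iron-recycling macrophages and Cd5l a protein they secrete. The other 11 were Abhd6, Col4a1, Dpysl3, Emp1, Fhl1, Gja1, Lhfp, Nckap1, Nid1, Sema6d and Ubd; Col4a1 and Nid1 are basement membrane components.

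Monocyte genes were split. Of 25 measured genes 12 were higher and 13 lower, and the median difference was -0.0008. In either direction 0 were without overlap, against 3.24% (higher) and 1.04% (lower) of all genes. Csf1r, the receptor of macrophage colony-stimulating factor on monocytes and macrophages alike, was at 9.98, 9.96 and 10.70 against 9.18 to 10.67. Cx3cr1, the fractalkine receptor, was lower by 0.88 and Ccr2, the receptor for monocyte exit from marrow, by 0.43, both with overlap. Along the score 4 of 24 monocyte genes fell (Klf4, Cd14, Cybb and Sirpa), against 6.84% of all genes, and 0 rose; Klf4 is also an immediate-early gene. Of 16 dendritic cell genes 5 were higher. Siglech, a receptor of plasmacytoid dendritic cells, was at 5.83, 6.07 and 5.94 against 6.29 to 7.93, below every other mouse, while the adhesion gene Cadm1 was above them, by 2.31.

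Genes of osteoclasts, the bone-resorbing relatives of macrophages, were also higher on average. Of 12 genes 9 were higher and 2 did not overlap, against 3.24% of all genes, with a median difference of 0.25; the list stood at 6.92, 7.09 and 6.95 against 6.42 to 6.70. Atp6v0d2, a subunit of their proton pump, was at 7.15, 7.49 and 5.96 against 3.88 to 5.60 and rose by 1.38 ± 0.27 along the score (limma adjusted p = 0.00548). Ctsk, the collagen-degrading protease, was at 5.73, 6.69 and 6.07 against 4.46 to 6.02 and overlapped. Ostm1, a partner of the lysosomal chloride transporter, was at 8.86, 8.86 and 8.91 against 7.87 to 8.65 and was higher by 0.63.

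**Figure D3:**
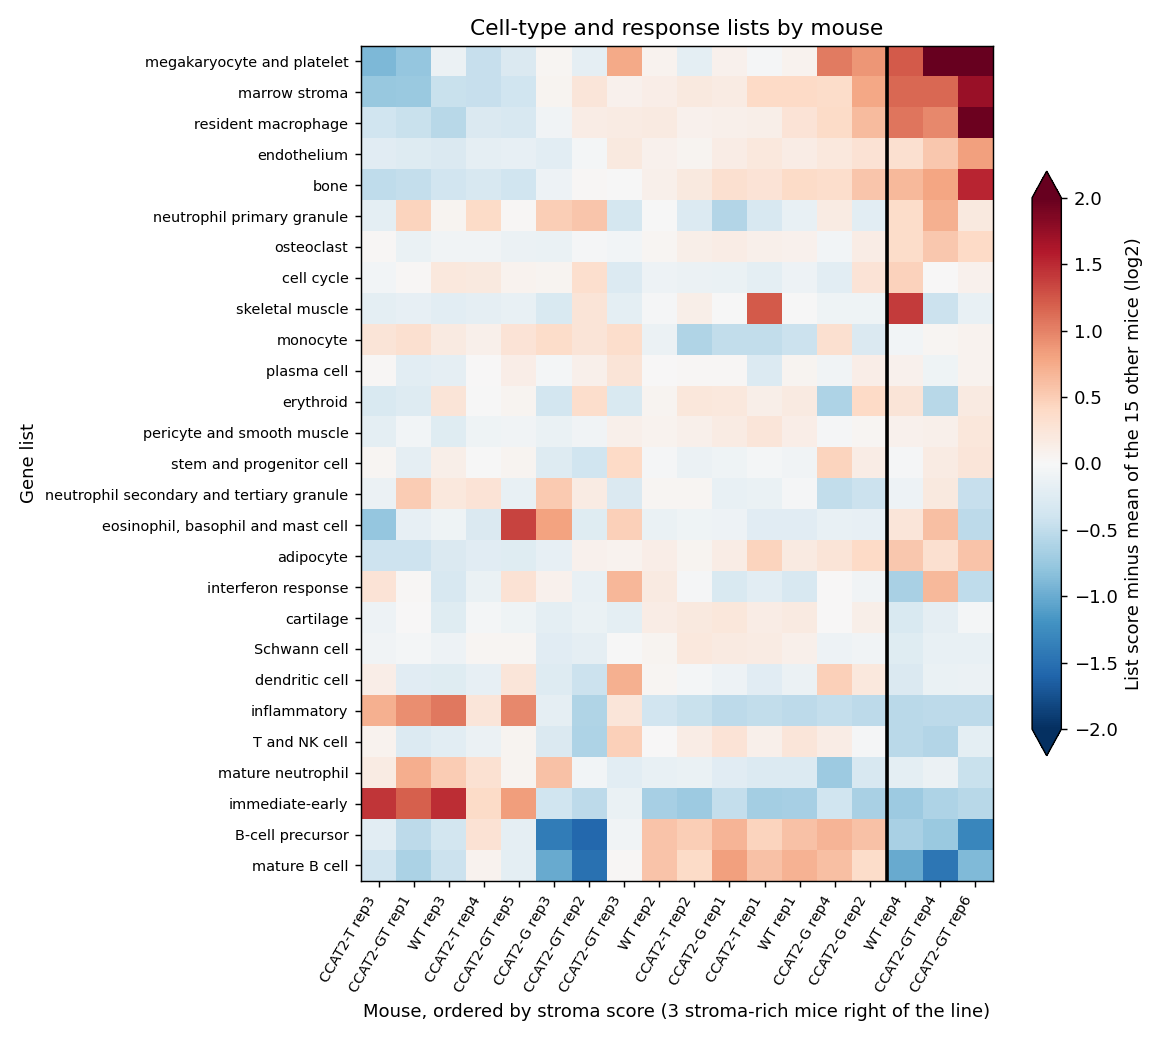
Score of each of 27 gene lists in each mouse minus the mean of the 15 other mice (log2, colour), with mice ordered by stroma score and the 3 stroma-rich mice right of the line. Megakaryocyte, macrophage and osteoclast rows are red in all 3 mice, skeletal muscle in WT rep4 alone of the 3, and both B-cell rows are blue in all 3. Among the other mice both B-cell rows are lowest in CCAT2-G rep3 and CCAT2-GT rep2. They are also below the mean, by less, in CCAT2-GT rep1, WT rep3, CCAT2-T rep3 and CCAT2-GT rep5.

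Among other tissues that can enter a marrow sample, the lists varied from mouse to mouse. Skeletal muscle genes were high in WT rep4 (list score 6.00) and not in CCAT2-GT rep4 (4.17) or CCAT2-GT rep6 (4.45); the other mice ran from 4.30 to 5.83, the top being CCAT2-T rep1. Tnnc2, a fast-muscle troponin, was at 8.01, 3.63 and 4.10 against 3.98 to 7.26. Acta1, skeletal actin, was at 6.94, 4.73 and 4.74 against 4.38 to 6.27. Of 18 muscle genes 13 were higher on average but 0 were without overlap, against 3.24% of all genes. Without WT rep4 the median difference of the list changed from 0.15 to -0.28. Adipocyte genes had a median difference of -0.14: 5 of 12 were higher and 2 did not overlap, against 3.24% of all genes. These were Adipoq and Fabp4, which stroma and endothelium also express and which belong to the stroma score. Pericyte and smooth muscle genes had a median difference of -0.05. Of these 14 genes 1 was without overlap, the pericyte signalling gene Rgs5 (higher by 2.73), against 3.24% of all genes. Of 11 cartilage genes 1 was higher and of 7 Schwann cell genes 1. Along the score in the 15 other mice the muscle list had a median slope of 0.77, with 17 of 18 genes positive and 3 rising (Ttn, Myoz1 and Mybpc2), against 3.9% of all genes. The pericyte list had a median slope of 0.45, with 13 of 14 positive. Rgs5, Notch3 and Kcnj8 rose and Acta2 fell, against 3.9% and 6.84% of all genes. Both medians were above 0 in all 34 alternatives, from 0.29 to 0.99 for muscle and from 0.07 to 0.735 for pericytes. With the interquartile range in the model they shrank to 0.31 and 0.15. There 0 genes of either list passed, and likewise without the narrow arrays or without the immediate-early-high mice.

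B-cell genes were lower in the 3 mice, but not uniquely. Of 31 mature B-cell genes 0 were higher on average, with a median difference of -1.16, and of 29 precursor genes 3 were higher, with a median of -0.97. The mature B-cell list stood at 6.63, 6.20 and 6.76 in WT rep4, CCAT2-GT rep4 and CCAT2-GT rep6. The others ran from 6.16 in CCAT2-GT rep2 to 8.47 in CCAT2-G rep1, with a median of 7.72. Of the 15 other mice 2 lay as low as the 3, CCAT2-GT rep2 and CCAT2-G rep3, neither of them stroma-rich. With these mice in the range, 1 mature B-cell gene, Ly6d, and 0 precursor genes were without overlap, against 1.04% of all genes.

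Among precursor genes, Rag1, which cuts the immunoglobulin genes for recombination, was at 6.11, 5.34 and 2.62 against 2.57 to 8.87 with a median of 8.17. Vpreb1 and Igll1 form the surrogate light chain: Vpreb1 was at 7.01, 7.36 and 3.99 against a median of 8.01, and Igll1 at 6.67, 6.76 and 4.07 against 7.71. CCAT2-GT rep6 was the lowest of the 3 in all of these. Cd79a, the signalling chain of the B-cell receptor, was at 5.42, 4.92 and 5.03 against 4.83 to 9.08 with a median of 8.31. In mature B cells, Ms4a1 (CD20) was at 7.54, 5.60 and 7.39 against 6.31 to 10.22, and the transcription factor Spib at 7.49, 6.70 and 6.15 against 6.21 to 9.86. For Ms4a1 and for the antigen-presentation gene H2-Ob (5.84, 4.33 and 5.93 against 4.96 to 8.38) CCAT2-GT rep4 was lowest.

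Along the score in the 15 other mice B-cell genes had slopes of the opposite sign. The median slope was 1.04 for the mature list and 0.87 for the precursor list. Of the mature genes 3 of 31 rose (Pou2af1, Cd83 and Ly6d) and 0 fell, against 3.9% and 6.84% of all genes. Of the precursor genes 0 of 29 passed. With the interquartile range of the arrays in the model these medians were 0.07 and 0.10, and over all 18 mice -0.11 and -0.10. They were 0.77 and 1.02 without the 5 narrow arrays, 2.12 and 2.52 without the 5 immediate-early-high mice, and 1.90 and 2.10 with that level as a covariate. Mature B-cell scores ran from 8.03 to 8.47 on the 5 narrow arrays, and the part of the array spread in these slopes was not tested further. T and NK cell genes had a median difference of -0.40, with 1 of 31 higher. Ccr7, the receptor that guides naive lymphocytes to lymph nodes, was at 4.14, 4.12 and 4.14 against 4.22 to 7.06, and the adhesion receptor Cd2 was lower by 1.11 with overlap. Cd3e of the T-cell receptor complex was at 5.84, 6.25 and 6.34 against 6.02 to 7.17. Plasma cell genes had a median difference of -0.04 with 8 of 16 higher, although Irf4, which drives plasma cell differentiation, was lower by 0.92.

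**Figure D4:**
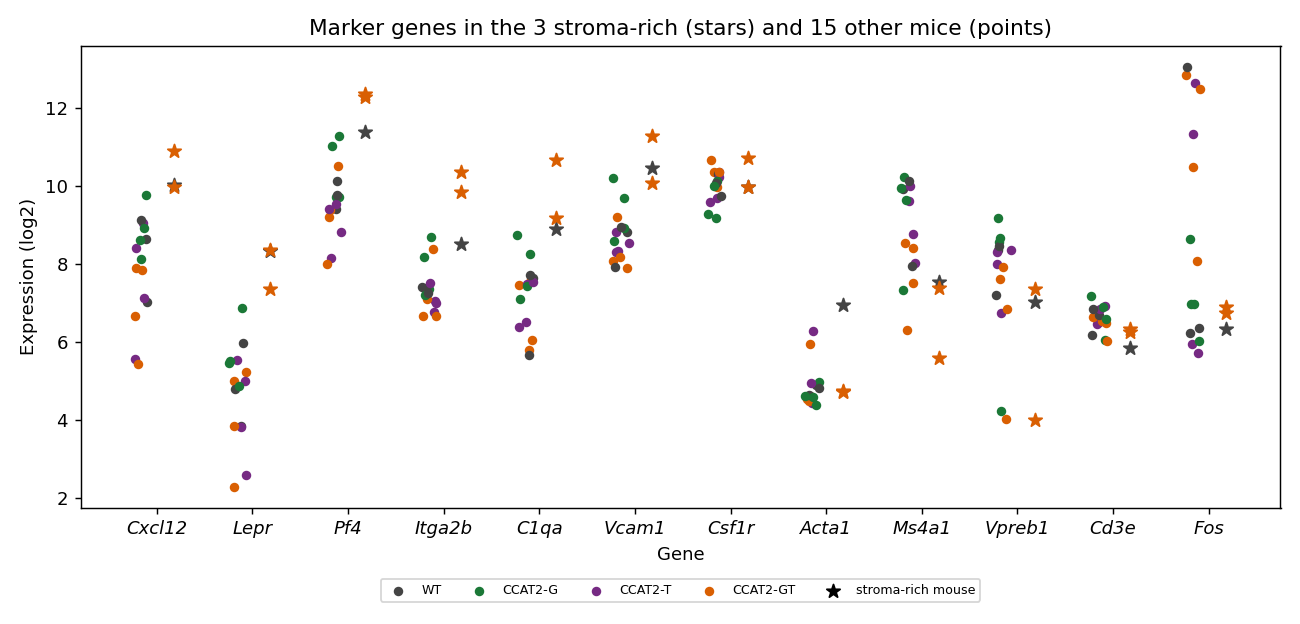
log2 expression of 12 marker genes in every mouse: points are the 15 other mice, stars the 3 stroma-rich mice, colours the genotypes. Stars are above all points for Cxcl12, Lepr, Pf4 and C1qa, and are at 5.60 to 7.54 for Ms4a1, where the other mice reach 10.22. For Csf1r the star of CCAT2-GT rep6 is just above the points and the other stars lie within their range.

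Immediate-early genes, which cells switch on within minutes of a stimulus, were low in the 3 mice and in most others. The list stood at 6.36, 6.46 and 6.53, within the 6.35 to 8.57 of the other mice; 4 of 28 genes were higher and the median difference was -0.62. Fos was at 6.32, 6.75 and 6.91 against 5.71 to 13.05. Klf2, a transcription factor of quiescent lymphocytes and endothelium, was at 7.37, 7.53 and 6.87 against 7.58 to 10.10 and did not overlap. Among 22 inflammatory genes 3 were higher, with a median difference of -0.39; Ptgs2, the inducible cyclooxygenase, was at 2.08, 2.18 and 2.15 against 2.18 to 8.57. Along the score 18 of 28 immediate-early genes fell and 1 (Ccn2) rose, against 6.84% and 3.9% of all genes. Of 22 inflammatory genes 13 fell and 1 (Il1a) rose. Fos fell by 7.79 ± 0.86 per unit of score (limma adjusted p = 0.000183), Ier2 by 2.96 ± 0.30 (0.000121), the phosphatase gene Dusp1 by 4.40 ± 0.51 (0.000266) and Nfkbiz by 3.87 ± 0.45 (0.000266). Without the 5 mice of highest immediate-early level 0 genes of either list passed, and the median slope of the immediate-early list was -0.17 in place of -1.75. The median difference of that list between the 3 mice and the rest was then at its smallest, -0.12.

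Granulocyte lists had median differences of different sign by stage. Of their genes 0 were without overlap, against 3.24% (higher) and 1.04% (lower) of all genes. Of 11 primary granule genes, made by promyelocytes, 9 were higher, with a median difference of 0.45, while along the score their median slope was -0.42. Ctsg, a serine protease of these granules, was at 11.59, 11.69 and 11.52 against 9.71 to 11.66. Of 17 genes of later granules 4 were higher (median -0.10), and of 17 mature neutrophil genes 3 were higher (median -0.44). Along the score 9 of 17 mature neutrophil genes fell, against 6.84% of all genes, and 0 rose (median slope -1.03), among them Il1b by 2.38 (limma adjusted p = 0.00524). Il1b is also on the inflammatory list. In the eosinophil, basophil and mast cell list 6 of 18 genes were higher, with a median of -0.13.

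Erythroid genes were mixed (12 of 30 higher, median -0.05). In 1 gene, Gfi1b, the 3 mice were above every other mouse, which is 3.33% of the list against 3.24% of all genes. This transcription factor acts in megakaryocytes as well. Alas2, the first enzyme of heme synthesis in red cells, was at 11.63, 10.81 and 11.64 against 11.01 to 12.66, and it rose along the score by 1.50 ± 0.29 (limma adjusted p = 0.00598). In all, 5 of 30 erythroid genes rose (Alas2, Trim10, Fech, Slc25a37 and Blvrb), against 3.9% of all genes. The median slope of the list was 0.25. Of 19 stem and progenitor genes 8 were higher (median -0.08), and Slamf1 (CD150), shared by stem cells and megakaryocytes, was above all others, higher by 2.15. It rose along the score by 1.45 ± 0.29 (limma adjusted p = 0.00701) whereas Kit, the receptor for Kitl, fell by 0.96 ± 0.29 (0.0464). Interferon response genes were mixed: the list was at 6.38 and 6.52 in WT rep4 and CCAT2-GT rep6, below the 6.70 to 7.69 of the others, and at 7.67 in CCAT2-GT rep4, near their top. Of 39 cell cycle genes 36 were higher, with a small median difference of 0.20, 0.45 in WT and 0.04 in CCAT2-GT.

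Among genes on no list, Myl9 had the largest difference. It encodes the regulatory light chain of smooth muscle and non-muscle myosin, and was at 8.82, 10.40 and 10.17 against 3.35 to 7.99 and was higher by 3.65. Cald1, an actin-binding regulator, was higher by 3.31 and Tpm2, a tropomyosin, by 2.99. In each of the 3 genes CCAT2-GT rep4 was highest and WT rep4 lowest of the stroma-rich mice, the order also seen for Alox12 and Gp1bb. Myl9 rose by 2.72 ± 0.42 along the score (limma adjusted p = 0.00164), Cald1 by 3.36 (0.00101) and Tpm2 by 1.98 (0.00255). Of the pericyte and smooth muscle list, 6 of 14 genes were higher on average in the 3 mice. Acta2, Tagln and Lmod1 were lower, by 0.29, 0.27 and 0.37, all with overlap. Along the score Acta2 had a slope of -0.84, whereas Tagln (0.58) and Lmod1 (0.50) had positive slopes that did not pass. Pde5a, a phosphodiesterase of cyclic GMP, was higher by 2.86 and Mrvi1, a substrate of the kinase that cyclic GMP activates, by 2.97; Mrvi1 rose along the score by 1.64 (limma adjusted p = 0.0154) and Pde5a did not pass (slope 0.76, 0.238). Serpinb2, Mfap3l, Lhfp and Gcsam were higher by 3.19, 3.11, 2.98 and 2.86. Ubd, a ubiquitin-like protein, had another order: it was at 9.00 in WT rep4, 6.21 in CCAT2-GT rep4 and 8.96 in CCAT2-GT rep6 against 3.66 to 6.09, and it rose by 1.85 (limma adjusted p = 0.00124).

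Genes below all other mice differed less. Osm, a cytokine of myeloid cells, was at 4.93, 5.45 and 5.29 against 5.50 to 9.28 and was lower by 1.58; it fell along the score by 3.71 (limma adjusted p = 0.000692). Gpat3, an enzyme of triglyceride synthesis, was lower by 1.26, Kmo of tryptophan breakdown by 1.18, the non-coding RNA gene Dleu2 by 1.17 (2 of 3 probesets) and the NF-kappaB regulator Bcl3 by 1.12. Their slopes of 0.01, 0.69, -0.44 and 0.08 in the other mice did not pass. Ifi209, Card6, Gpr171, Cd7 and Ier5 were lower by 0.95 to 1.01. Of the 151 lower genes 13 differed by at least 1, against 228 of the 470 higher genes. The genes of smallest p along the score, beside those above, were Igf1, the growth factor (slope 1.58 ± 0.15, limma adjusted p = 0.000109, and at 7.29, 6.71 and 7.80 against 5.02 to 6.54), Gdpd2 (1.67 ± 0.17, 0.000159) and, falling, Arap3 (-1.96 ± 0.23, 0.000266).

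**Figure D5:**
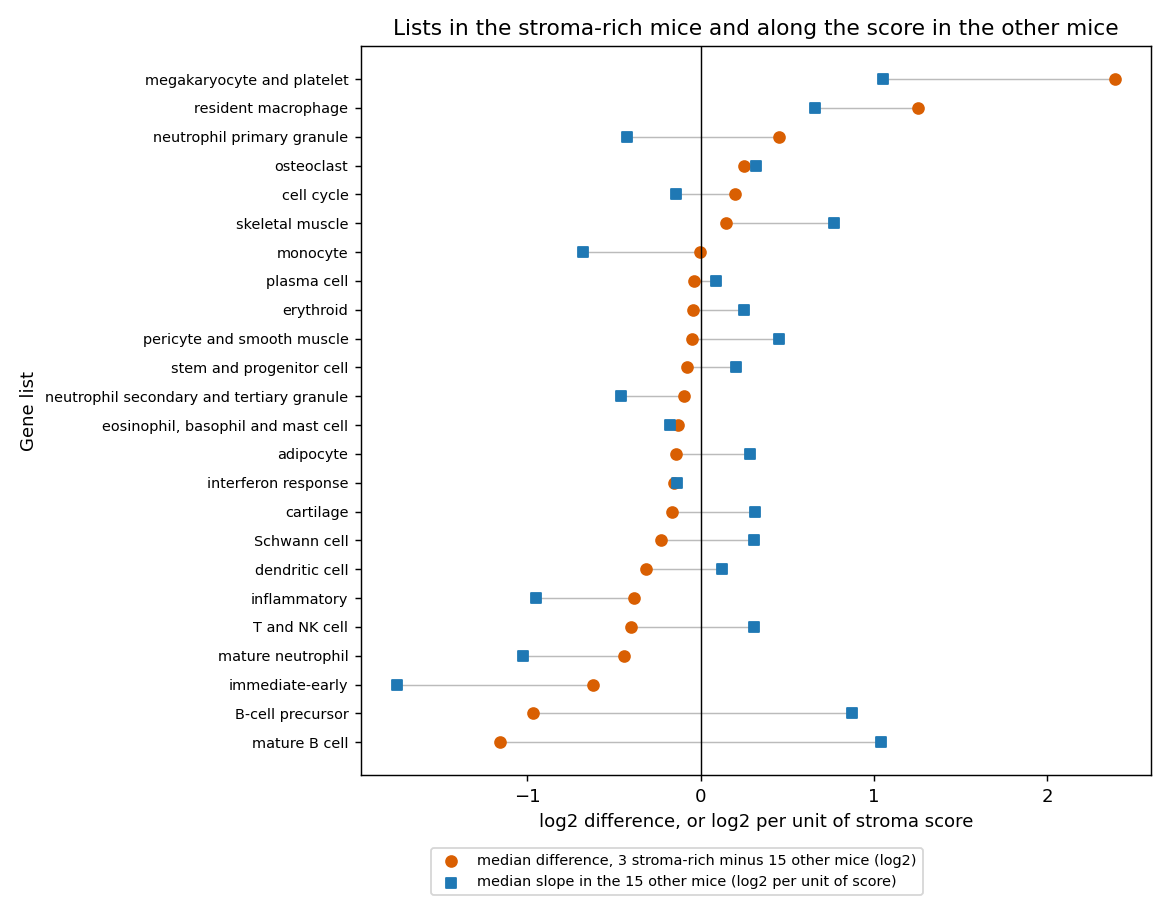
For each list outside the stroma score, the median log2 difference of its genes between the 3 stroma-rich and the 15 other mice (circles) and their median slope on the stroma score within the 15 (squares, log2 per log2 unit of score); grey lines join both values of a list. Megakaryocyte (2.39 and 1.05) and macrophage lists (1.26 and 0.66) lie right of 0 in both, and both B-cell lists lie left of 0 for the difference and right for the slope.

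The labels' own comparisons asked how DRAI+ and DRAI- marrow differ from WT and from each other. Both WT and DRAI+ mice include stroma-rich mice and the DRAI- group has none, so each comparison is given with all 18 mice and with the 15; all 3 comparisons share groups. The median difference of the megakaryocyte list was 0.46 for DRAI+ minus WT and -0.11 without the 3 mice, and 0.67 and -0.19 for DRAI+ minus DRAI-. For DRAI- minus WT it was -0.24 and 0.06. The macrophage list changed sign in the same way, from 0.17 to -0.06 for DRAI+ minus WT and from 0.30 to -0.10 for DRAI+ minus DRAI-. The stroma list went from 0.04 to -0.18 and from 0.26 to -0.24, a fall that the choice of the 3 mice by stroma genes fixes. The 3 mice were also the highest of all 18 in the megakaryocyte and macrophage lists, and DRAI- marrow lost no mouse. The changes of these lists in comparisons with DRAI- thus follow from leaving the 3 out and carry no test. The mature B-cell list kept its sign, -0.67 and -0.83 for DRAI+ minus WT and -0.99 and -0.83 for DRAI+ minus DRAI-.

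For single genes no difference passed the test. Pf4 differed by 0.12 ± 0.74 (SE) between DRAI+ and WT with all mice and by -0.49 ± 0.62 without the 3, and Itga2b by 0.53 ± 0.62 and -0.15 ± 0.42. C1qa differed by 0.31 ± 0.77 and -0.28 ± 0.59, whereas Ms4a1 was at -1.58 ± 0.66 and -1.62 ± 0.70; all had limma adjusted p = 1.00. In limma 0 genes (0.0%) were called in any of the 3 comparisons, with or without the 3 mice. At an unadjusted p below 0.05, DRAI+ minus WT had 171 higher and 211 lower genes with all mice and 114 and 171 without the 3. DRAI+ minus DRAI- had 557 and 831, and 240 and 389 without them, with smallest adjusted p-values of 0.456 and 0.930. DRAI- minus WT had 144 and 53, and 38 and 20 without them. With array weights in limma DRAI+ minus WT gave 456 calls with all mice and 2485 without the 3, and DRAI+ minus DRAI- gave 134 without the 3. With all mice but CCAT2-G rep3, DRAI+ minus DRAI- gave 7 calls.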

How the data were processed

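Total RNA of flash-frozen marrow cells was extracted with Trizol, labelled as biotin cRNA and hybridised to Affymetrix arrays, per the labels' protocols. The authors deposited log2 expression values of 45101 probesets on 18 arrays, made with RMA per the submitters' processing notes; its version is not given in the sources used here. RMA normalizes between arrays, so a large change in one tissue can shift other genes slightly. Arrays give no read depth, and their number limits the precision.

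Of the probesets 34958 had 1 gene symbol, 932 several and 9211 none listed; only the first kind was used, named through the platform annotation and RefSeq tables. Each gene was represented by its brightest probeset (9012 of 18194 genes had more than 1), and 14505 genes passed a filter on dim genes, a mean of at least 3.30 (the 30th percentile over probesets). The 27 gene lists had 723 entries, of which 666 had a probeset and 624 passed that filter. A list score is the mean log2 value of the list's genes. The members and the lists were chosen with earlier results of these data known.

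The 3 mice against the 15 others got differences and counts of genes without overlap, with no test. Slopes and group differences come from limma 3.58.1 under R 4.3.3, two-sided, by lmFit and then eBayes with a mean-variance trend. Their p-values were Benjamini-Hochberg adjusted over every gene tested and called at 0.05. The script was tested on simulated data. The titles call the samples biological replicates. Named genes were, by a fixed rule, the up to 10 genes on no list with the largest difference without overlap in each direction, the 4 members of each list that differed most in the direction of its median, a fixed set of markers, and the 5 genes of smallest p in each direction of each fit, without predicted, sex-linked and receptor-segment genes; further list members were named after their values were seen.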

Additional observations from a re-analysis of the deposited data

Results flagged for a closer look

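In 116 groups of 4 to 6 mice (27 lists, the stroma score and the interquartile range in each genotype), 11 held a mouse far from the others; chance alone flags about 5% of such groups. WT rep4 of the stroma-rich mice stood apart from the other WT mice for skeletal muscle (5.999, next mouse 4.587) and for megakaryocyte genes (7.913, next 6.761). WT rep3, one of the mice of lowest stroma score, stood apart for immediate-early genes (8.566, next 6.423), inflammatory genes (7.39, next 5.957), mature neutrophil genes (9.759, next 9.103) and, at the low end, pericyte and smooth muscle genes (4.501, next 4.819). CCAT2-G rep3 was low for B-cell precursor genes (5.786, next 7.779) and high for eosinophil, basophil and mast cell genes (6.606, next 5.711) and inflammatory genes (6.152, next 5.862). CCAT2-T rep4 was high for primary granule genes (10.675, next 10.088), and CCAT2-T rep1 low for plasma cell genes (6.497, next 6.771).

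In 3 of 27 lists the stroma-rich mice of both genotypes lay on opposite sides of the other mice of their genotype; the differences between genotypes were not tested. Skeletal muscle was higher by 1.48 in WT rep4 and differed by -0.23 in the CCAT2-GT mice. Monocyte genes differed by 0.069 in WT and -0.247 in CCAT2-GT, and stem and progenitor genes by -0.026 and 0.231.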

How the results depend on the processing

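The megakaryocyte, macrophage and osteoclast lists were higher in the 3 mice, and both B-cell lists lower, in all 29 alternatives run for that comparison. Their medians ran from 1.86 to 2.80, 0.97 to 1.43, 0.02 to 0.42, -1.39 to -0.80 (mature B) and -1.10 to -0.68 (precursors). The rankings by the 4 markers, marrow stroma, bone or endothelium alone are among the 29. They chose the same 3 mice, so they repeat the main comparison and could not differ from it. Genes without overlap numbered 1083 higher and 721 lower within genotype, and 228 and 13 with a difference of at least 1. With 1 mouse left out they were 472 to 911 higher and 154 to 455 lower. Without the 5 mice of highest immediate-early level, an alternative chosen after seeing the data, 303 were lower.

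For the slope, genes rising and falling were 228 and 618 with median centring, 267 and 588 with marrow stroma alone as the score, 1234 and 1510 with endothelium alone, and 1096 and 1570 with array weights. They were 92 and 55 with the interquartile range in the model, 18 and 1 without the 5 narrow arrays, 0 and 0 without the 5 immediate-early-high mice, and 1 and 0 with that level as a covariate, also added after seeing the data. Rising genes were 338 with a filter at the 50th percentile and 926 with bone alone; falling genes were 528 after quantile normalization and 651 with all 18 mice. With 1 mouse left out the counts ran from 221 to 1080 rising and 419 to 1363 falling. Fits with mice left out or a covariate added differ in power from the main fit, and without 1 mouse the counts moved up as well as down. The cause of these changes was not tested. Over 24 pairs of samples sharing a replicate number the correlation of deviations ran from -0.36 to 0.672 (median 0.086). Of 16 samples 6 matched their own number best. The 5 narrow arrays all carry number 1 or 2, and whether samples of the same number share a batch was not tested. With the replicate block 164 genes rose and 225 fell. The X-linked gene Xist was high in 4 mice, and in a fit without them 616 genes rose and 959 fell. Sex was not compared between the stroma-rich and the other mice.

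In the labels' comparisons array weights gave 456 calls for DRAI+ against WT, 2485 without the 3 mice, and 134 for DRAI+ against DRAI- without them. With 1 mouse left out, calls ran from 0 to 7 for DRAI+ against DRAI- with all mice, from 0 to 1 without the 3, and were 0 in the others. Along the stroma score some genes that had passed changed sign in an alternative, for example the immediate-early genes Egr1 and Hspa1b. Egr1 had a slope of -5.61 in the main fit (limma adjusted p = 0.0104). Without the mice of highest immediate-early level its slope was 1.96, and with that level as a covariate 2.98. The slope of Hspa1b, -4.44 (limma adjusted p = 0.0188), was 1.42 and 0.24 in the same alternatives. None of these positive slopes passed in limma.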
